A study of Mus musculus with 27 samples.

Results

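The complement components outside C1q comprised 9 genes of the 37991 in the deposited files, taken by name: C1s, C1ra, C2, C3, C4b, Cfb, Cfp, Serping1 and C3ar1. The list was chosen with earlier results of these data known. All 9 passed the filter on low counts. They were followed in cultured calvarial cells (cells of the skull vault) of C57BL/6J-Col3.6 CFP mice, taken as neonates aged 5 to 9 days, at 9 time points from day 2 to day 18 of osteoblast differentiation in steps of 2 days. The mice carry cyan fluorescent protein (CFP) under the Col3.6 fragment of a type I collagen promoter. After 4 days of growth, CFP-positive cells were sorted and put back in culture in medium with serum, ascorbic acid and β-glycerol phosphate, so every time point shares the strain, the transgene, the sort and the medium. That sort was the only selection for the lineage, and the whole culture was lysed at each time point.

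Each time point has 3 profiles, 27 in all. The profiles of a day carry the same barcode and differ in sequencing lane, and within each day they differed by no more than sampling noise (chi-square per degree of freedom 0.999 to 1.02). That check covered 9352 to 10045 genes a day and left out genes with few or fractional counts, as C2 and Cfb often had. The study calls the profiles triplicate samples, and the labels do not say that they came from separate cultures. From the shared barcode they were counted here as 1 sample a day, with no replicate within a day, and an SD given below over 3 profiles covers sequencing and quantification only. Summed libraries held 22470195 to 62009157 estimated counts (median 43146793), with day 10 the shallowest and day 12 the deepest. The samples are labelled osteoblasts, and 6 of 9 osteoblast markers rose over the days, among them Bglap (osteocalcin) from 1.24 to 208 TPM, against 28.3% of all genes tested. Sp7, Alpl and Spp1 did not pass. Sp7 (osterix) measured 32.3 TPM on day 2 and 10.6 on day 18. Spp1 (osteopontin) measured 402 TPM on day 2, 1012 on day 6, its highest day, and 532 on day 18. Its fitted log2 change was -1.17, although day 18 stood above day 2. A spline, which tests change of any shape, called all 9 markers, against 57.5% of the genes tested with it. Markers of macrophages and of adipocytes rose too, as set out beside the results they moved with.

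Complement is a cascade of plasma and tissue proteins that tags and lyses microbes and clears cell debris. In the classical pathway C1q binds its target and activates the proteases C1r and C1s, which cut C4 and C2 into the enzyme that cleaves C3; in the alternative pathway factor B (Cfb) forms the C3-cleaving enzyme, which properdin (Cfp) stabilises. C1 inhibitor, the product of Serping1, blocks C1r, C1s and the lectin pathway proteases, and C3ar1 encodes the receptor for the fragment C3a. The liver makes most circulating complement, whereas fibroblasts, adipocytes and macrophages are known local sources.

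On build NCBIM37 the genes lie on chromosomes 6, 17, 2 and X. The protease genes C1ra (ENSMUSG00000055172, chr6:124462423-124473458, plus strand) and C1s (ENSMUSG00000038521, chr6:124480363-124586998, minus strand) are neighbours, with C3ar1 (ENSMUSG00000040552, chr6:122797156-122806179, minus strand) on the same chromosome. In the class III region of the major histocompatibility complex lie C4b (ENSMUSG00000073418, chr17:34865325-34880827), Cfb (ENSMUSG00000090231, chr17:34993319-34999463) and C2 (ENSMUSG00000024371, chr17:34999549-35035397), all on the minus strand, and C3 (ENSMUSG00000024164, chr17:57343397-57367559, minus strand) lies farther along. Serping1 (ENSMUSG00000023224) is at chr2:84605544-84615601 and Cfp (ENSMUSG00000001128) at chrX:20502580-20508681, both on the minus strand.

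Promoter sequence from RefSeq (GRCm38.p6) was at hand for 5 of the 9 genes (C1s, listed there as C1s1, C1ra, C3, Cfp and C3ar1). The 250 bases before the start are printed, 5′ to 3′, for the 3 genes that held a C/EBP motif, because C/EBP factors are known to act on acute-phase genes such as C3 and Cebpa is among the factors measured below. Capitals mark the motif, searched as TTNNGNAA on both strands. The genes are C3 (chr17:57228137-57228386, minus strand), C1s (chr6:124542360-124542609, minus strand) and C1ra (chr6:124512371-124512620, plus strand).
C3: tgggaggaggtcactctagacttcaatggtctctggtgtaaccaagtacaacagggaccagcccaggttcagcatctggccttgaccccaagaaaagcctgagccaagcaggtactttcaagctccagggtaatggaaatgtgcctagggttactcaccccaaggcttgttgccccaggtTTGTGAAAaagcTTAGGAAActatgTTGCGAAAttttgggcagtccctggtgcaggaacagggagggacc
C1s: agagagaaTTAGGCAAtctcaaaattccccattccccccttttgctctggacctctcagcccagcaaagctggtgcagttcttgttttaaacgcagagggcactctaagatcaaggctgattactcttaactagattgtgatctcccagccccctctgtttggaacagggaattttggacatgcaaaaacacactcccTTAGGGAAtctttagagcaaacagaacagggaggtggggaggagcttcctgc
C1ra: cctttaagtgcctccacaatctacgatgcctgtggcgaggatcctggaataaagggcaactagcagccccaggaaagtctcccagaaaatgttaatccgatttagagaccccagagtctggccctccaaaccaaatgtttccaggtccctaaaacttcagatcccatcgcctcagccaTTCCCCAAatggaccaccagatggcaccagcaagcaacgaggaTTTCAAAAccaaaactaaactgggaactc

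Counting back from -1 just before the start, the motif stood in C3 at -70 to -63, -58 to -51 and -45 to -38, the last of them reading as a match on either strand. In C1s it stood at -242 to -235 and -52 to -45, and in C1ra at -72 to -65 and -29 to -22. The motif is common: 36.8% of all 32851 promoter windows of this length held it, so 3 of 5 is a description of these letters only. None of the 5 windows held the interferon-stimulated response element, GAAA repeated after a gap of 2 bases (2.98% of all windows), the STAT motif TTCNNNGAA (7.02%) or the NF-kB consensus (7.25%), each searched on both strands.

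Levels are given as TPM (transcript abundance per length and per library, scaled so that each profile has the same upper quartile), a scale per length on which genes may be compared. Changes were tested by a straight line in day through the 9 summed libraries with edgeR's quasi-likelihood test, and a gene was said to rise or fall where its Benjamini-Hochberg adjusted p over all tested genes was under 0.05. The fitted change is the slope over the whole course from day 2 to day 18, on a log2 scale of counts. All 9 genes rose. Rises were common in this culture, since 28.3% of the 15659 genes tested rose and 54.3% followed day in either direction. The median fitted change was 4.43 over the 9 complement genes and 0.05 over all tested genes. That contrast is a description only, because the list was chosen with earlier results of these data known. A spline in day, which tests change of any shape, also called all 9, against 57.5% of the genes tested with it. RNA was measured from whole cultures, in which fewer cells of a type and less RNA per cell cannot be told apart.

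**Figure D1:**
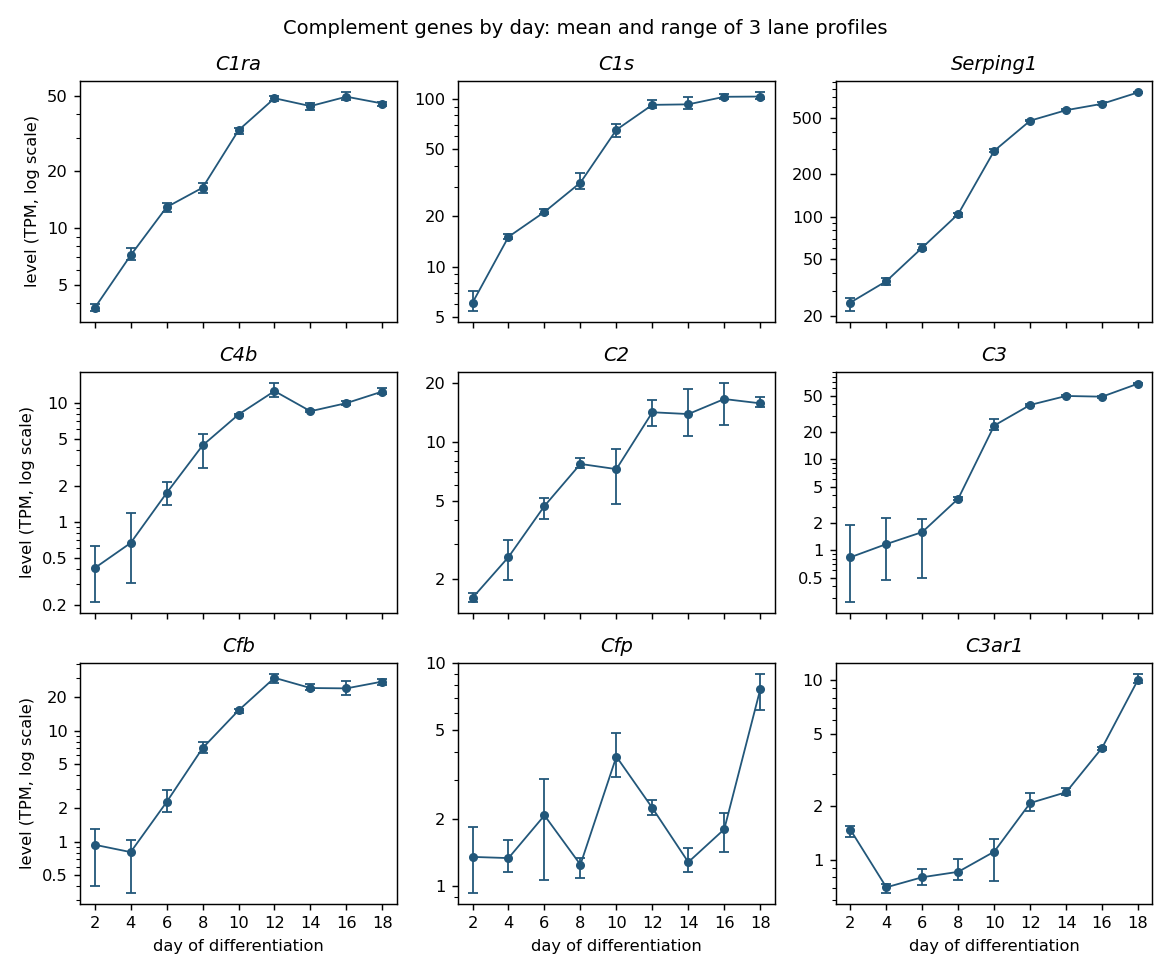
Level of each of the 9 complement genes (TPM, log scale, a separate axis for each gene) by day of differentiation. Points are the mean of the 3 lane profiles of a day and bars run from the lowest to the highest profile. C1ra, C1s, C4b, C2, C3, Cfb and Serping1 all stand higher on day 12 than on day 8, with C4b and Cfb lower on day 14 than on day 12 beyond the range of the profiles, whereas Cfp and C3ar1 stand highest on day 18.

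The proteases of the classical pathway, C1s and C1ra, rose together. C1s measured 6.10, 15.1, 21.2, 31.7, 65.4, 92.2, 92.8, 103 and 103 TPM on days 2, 4, 6, 8, 10, 12, 14, 16 and 18. C1ra, on the same days, measured 3.78, 7.17, 12.9, 16.3, 32.8, 48.5, 44.0, 49.4 and 45.4 TPM. Both passed 50 percent of their highest day on day 10, and from day 12 on C1s did not differ between neighbouring days in order of level beyond the spread of the profiles. The fitted log2 change was 4.43 for C1s (SE 0.61, edgeR adjusted p = 0.000226) and 3.64 for C1ra (SE 0.53, edgeR adjusted p = 0.00032). C1s exceeded C1ra in TPM on every day, by a ratio of 1.62 to 2.27. That ratio depends on the effective transcript length that the quantification assigned to C1s, which ranged from 1513 to 2475 bases. The largest single step of C1s was the first, 2.47-fold from day 2 to day 4, whereas that of C1ra was 2.01-fold from day 8 to day 10.

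Their substrates C4b and C2 also rose, to lower levels. C4b encodes complement C4 and measured 0.408 ± 0.210 TPM (SD over 3 profiles) on day 2, 4.39 ± 1.37 on day 8 and 12.6 ± 1.87 on day 12, then 8.50, 9.95 and 12.5 on days 14, 16 and 18. The effective length assigned to C4b ranged from 1459 to 5100 bases, so that day 18 stood 52.9-fold above day 2 in CPM (counts scaled to a common library total, with no correction for length) and was the highest day, against 30.5-fold in TPM with day 12 highest. C2, the protease subunit of the classical C3 convertase, measured 1.60 ± 0.0859 TPM on day 2, 7.71 ± 0.491 on day 8 and 14.1 ± 2.17 on day 12. It then held between 13.8 and 16.5 TPM, with overlapping profile ranges on those last 4 days. The fitted log2 change was 5.66 for C4b (SE 1.08, edgeR adjusted p = 0.00144) and 2.77 for C2 (SE 0.46, edgeR adjusted p = 0.000643).

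C2 and Cfb share sequence with the readthrough gene Gm20547, which holds 45.8% of the 50-base words of C2 and 74.2% of those of Cfb, and C4b shares 34.7% of its words with C4a. The counts of C2 and Cfb were often fractional, with whole numbers in just 3 and 2 of the 27 profiles, and how reads were divided among these genes is uncertain. When Gm20547, C2 and Cfb were summed and fitted as 1 gene, the fitted log2 change was 4.15 (SE 0.63, edgeR adjusted p = 0.000387), which lies between the separate values of C2 and Cfb. The counts assigned to Gm20547 were 7 on day 2, and those assigned to C4a were at most 18 on any day. C1ra shares 41.5% of its words with C1rb and C1s 24.1% with Gm5077, both of which received few counts.

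C3, on which all the pathways converge, had the largest fitted change of the 9 genes. It measured 0.835, 1.17, 1.58, 3.68, 23.4, 39.5, 49.5, 48.7 and 67.7 TPM on days 2, 4, 6, 8, 10, 12, 14, 16 and 18. Days 2, 4 and 6 overlapped in their profiles (0.270 to 2.24 TPM), as did days 14 and 16, and the rest stood apart. The step from day 8 (3.68 ± 0.142) to day 10 (23.4 ± 3.76) was 6.36-fold. The fitted log2 change was 8.96 (SE 1.35, edgeR adjusted p = 0.000367), the 54th largest of the 15659 genes tested. A line overstated the course of C3. On counts, the scale of the fit, C3 went from 1.09 CPM on day 2 to 199 on day 18, a 183-fold difference. In TPM the difference was 81.0-fold, or 6.34 in log2, and part of its gap to the fitted value lies in the correction for length. The effective transcript length that the quantification assigned to C3, by which TPM is divided, ranged from 804 to 4857 bases across the profiles.

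Of the alternative pathway, Cfb had a course near that of C3 and Cfp was highest on day 18. Cfb measured 0.944, 0.811, 2.29, 6.98, 15.2, 29.9, 24.2, 24.1 and 27.7 TPM over the 9 days. It was highest on day 12, and days 12, 14, 16 and 18 overlapped from one to the next in order of level. Its fitted log2 change was 5.73 (SE 1.10, edgeR adjusted p = 0.0015). The ratio of Cfb to C2, its classical pathway counterpart and chromosomal neighbour, was 0.313 ± 0.112 on day 4 and 2.12 ± 0.469 on day 12. C3 stood at 0.528 ± 0.0729 times Cfb on day 8 and at 2.44 ± 0.119 times Cfb on day 18. These ratios depend on the effective lengths assigned, which ranged from 608 to 2417 bases for Cfb and from 930 to 2362 for C2. The SDs do not cover errors in how reads were divided among genes and isoforms.

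Cfp was low throughout and high on 1 day. It measured 1.36, 1.34, 2.08, 1.25, 3.82, 2.25, 1.28, 1.80 and 7.63 TPM over the 9 days. Day 18 stood 4.23-fold above day 16, whereas 6 of the 8 pairs of days next to each other in order of level overlapped. The values before day 18 rest on 27 to 109 counts a day, against 228 on day 18. In CPM the highest of the earlier days was day 12 (1.76, 95% Wilson interval 1.46 to 2.12) and day 18 stood at 5.13 (4.50 to 5.84), and the TPM of day 10, which was 50.0 percent of that of day 18, came from 27 counts (0.826 to 1.75 CPM). The intervals cover counting error only. The fitted log2 change of Cfp was 2.01 (SE 0.54, edgeR adjusted p = 0.00913). That call rests on day 18: without it the change was 0.83 (SE 0.48, edgeR adjusted p = 0.174), and the spline no longer called Cfp either (edgeR adjusted p = 0.306).

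**Figure D2:**
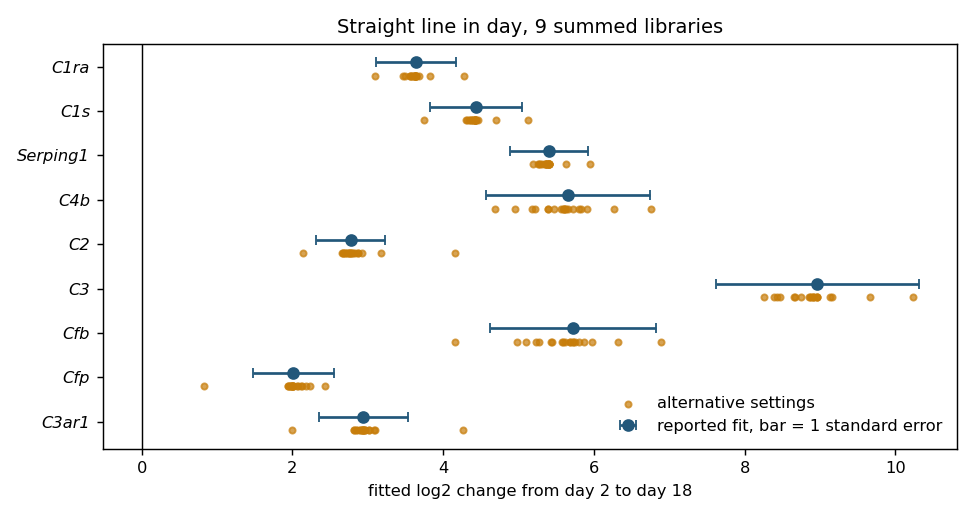
Fitted log2 change from day 2 to day 18 of each complement gene by a straight line in day; blue points with bars give the reported fit ± 1 standard error and orange points the same value under the alternative settings. All points lie above 0, C3 lies farthest right at 8.96, and the Cfp point at 0.83 is the fit without day 18.

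Serping1, which encodes C1 inhibitor, was the most abundant of the 9 genes on every day. It measured 24.7, 35.01, 60.5, 105, 292, 478, 567, 629 and 757 TPM on days 2, 4, 6, 8, 10, 12, 14, 16 and 18. No neighbouring days overlapped in their profile ranges. Serping1 alone made up 60.0 percent of the summed TPM of the 9 genes on day 2 and 72.3 percent on day 18, a sum that went from 41.2 ± 2.25 to 1047 ± 1.08 TPM. The fitted log2 change was 5.40 (SE 0.52, edgeR adjusted p = 4.17e-05), the smallest adjusted p of the 9. Its largest step was 2.80-fold, from day 8 to day 10.

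Relative to its target proteases, the inhibitor was lowest on day 4 and highest on day 18. The ratio of Serping1 to the sum of C1s and C1ra was 2.50 ± 0.295 on day 2, lowest at 1.57 ± 0.0933 on day 4, 2.98 ± 0.232 on day 10 and 5.09 ± 0.252 on day 18. Masp1, a lectin pathway protease that C1 inhibitor also blocks, moved the other way. It measured 94.3 TPM on day 2, 119 on days 4 and 6, 25.3 on day 10 and 16.9 on day 18, with a fitted log2 change of -3.71 (SE 0.49, edgeR adjusted p = 0.000188). Masp1 thus stood at 9.54 ± 0.599 times C1s plus C1ra on day 2 and at 0.114 ± 0.0153 times on day 18, and the order of the levels turned between day 8 and day 10. The ratios were not tested. They depend on the effective lengths assigned, which ranged from 1513 to 2475 bases for C1s. Counts of C1s were whole numbers in just 9 of the 27 profiles, and the SDs do not cover errors in how reads were divided.

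**Figure D3:**
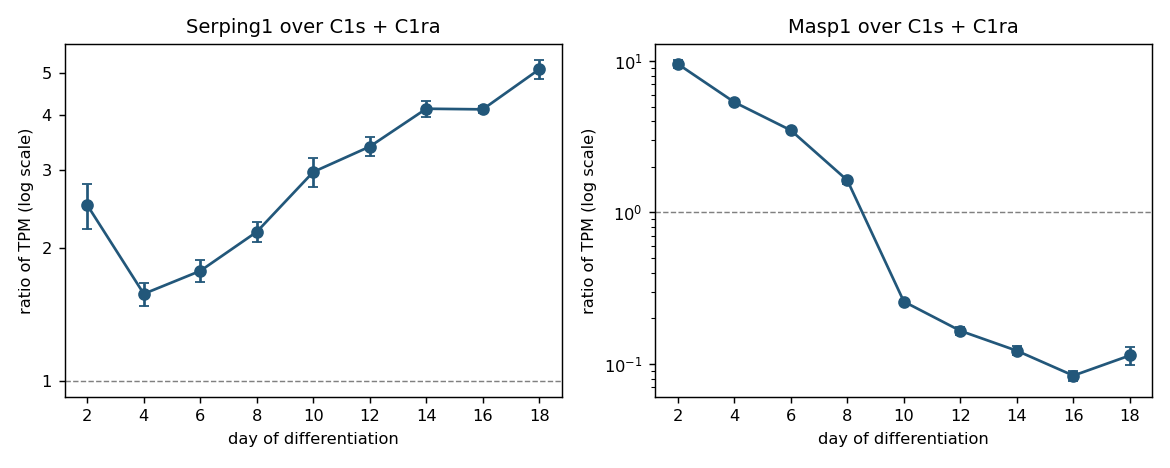
Ratio of Serping1 to the sum of C1s and C1ra (left) and of Masp1 to the same sum (right), in TPM on log axes, by day; bars are ± 1 SD over the 3 lane profiles of a day and the dashed line marks a ratio of 1. The left ratio dips to 1.57 on day 4 and reaches 5.09 on day 18; the right ratio crosses 1 between days 8 and 10.

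C3ar1, the C3a receptor, had a course unlike those of C1s, C1ra, C2, C3, C4b, Cfb and Serping1. It measured 1.47, 0.702, 0.799, 0.857, 1.11, 2.07, 2.38, 4.20 and 10.1 TPM over the 9 days. Day 2 stood above days 4 to 10 in all profiles, days 4, 6, 8 and 10 overlapped from one to the next, and day 18 was 2.40-fold above day 16. The fitted log2 change was 2.94 (SE 0.59, edgeR adjusted p = 0.00189), and it was 1.99 without day 18 (SE 0.58, edgeR adjusted p = 0.0165) and 4.27 without day 2 (SE 0.42, edgeR adjusted p = 0.000128). In CPM it went from 4.07 (95% Wilson interval 3.50 to 4.72) on day 2 through 1.87 (1.50 to 2.33) on day 4 to 24.6 (23.1 to 26.1) on day 18.

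**Figure D4:**
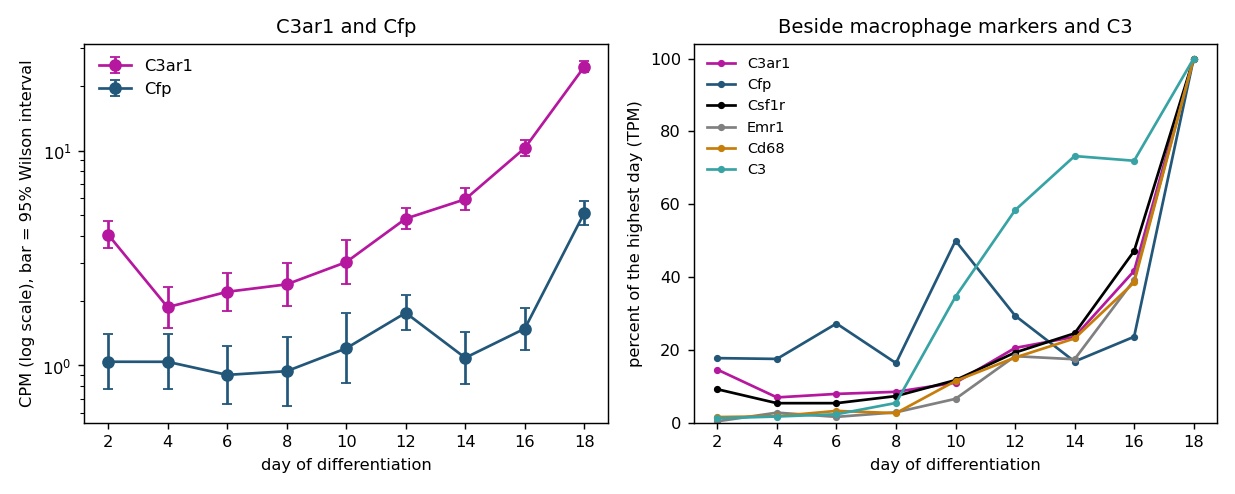
Left, C3ar1 and Cfp in CPM (log scale) by day, with bars for the 95% Wilson interval of the summed count. Right, TPM as percent of the highest day for C3ar1, Cfp, C3 and the macrophage markers Csf1r, Emr1 and Cd68; C3ar1 and the markers stand under 50 percent until day 16, where C3 stands at 71.9 percent.

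In TPM over the days, C3ar1 and Cfp correlated less with the other 7 genes than those 7 did among themselves. Across the 9 days, Pearson's r of log2(TPM + 1) was 0.928 to 0.996 among C1s, C1ra, C2, C3, C4b, Cfb and Serping1. It was 0.604 to 0.744 between C3ar1 and those 7, 0.408 to 0.524 between Cfp and those 7, and 0.669 between Cfp and C3ar1. These are descriptions over 9 points that share their libraries, and genes that rise over days correlate with many others: 1161 of 13021 genes had r of at least 0.95 with Serping1 and 1116 with C1s, but 29 with C3ar1 and none with Cfp. For Cfp, a course of its own cannot be told from noise of quantification. Its TPM rested on few counts before day 18 and on an assigned effective length of 321 to 1357 bases. The rank correlation of its days between TPM and CPM was 0.633, against 0.983 or more for each other member.

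The genes most like each member by the same measure were named without regard to their function. They were Fam43a, Eya4 and Gxylt2 for C1s, Bace2, Hoxa2 and Cxcl12 for C1ra, Fndc1, Neto2 and Mef2c for C4b, and Cd59b, Fbxo36 and Tm7sf3 for C2. They were A930038C07Rik, Entpd2 and Fgf10 for C3, Sesn1, Angptl1 and Sdc2 for Cfb, and Emb, Arhgap20 and Mxd4 for Serping1. For C3ar1 the closest was Csf1r, the receptor of the macrophage growth factor (r = 0.988), then Pld4 and 2310046K01Rik. For Cfp they were 5730577I03Rik, Mrpl4 and Itga2b, all with r of 0.94, and the r of Itga2b had an SD of 0.302 over the 3 profiles.

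Markers of other cell types moved over the same days. The summed level of 7 macrophage markers was 24.1 to 61.7 TPM on days 2 to 6 and 522 to 2014 TPM on days 14 to 18, and 6 of the 7 rose (Cd14, at 0.820 TPM on day 2 and 2.76 on day 18, did not pass). Most of that sum was 1 gene, Lyz2, at 1855 of the 2014 TPM on day 18, whereas Ptprc reached 2.23 TPM. Csf1r measured 1.38 TPM on day 2, 7.04 on day 16 and 14.9 on day 18, near the course of C3ar1. The summed level of 5 adipocyte markers was 3.21 to 7.44 TPM on days 2 to 6 and 188 to 407 TPM on days 14 to 18, and all 5 rose. Itgam and Cfd, 1 of each list, are complement genes as well. The part of these cells in the rise of any complement gene was not tested. The summed osteoclast markers stood at 37.2 to 85.6 TPM on days 2 to 6 and at 204 to 215 TPM on days 14 to 18, and 2 of these 5, Acp5 and Ctsk, rose, with Calcr and Dcstamp at 0 counts. Ctsk made up 193 of their 211 TPM on day 18. Of all genes tested, 28.3% rose.

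The other lists stayed low. Hepatocyte markers, those of the liver cells that make most plasma complement, summed to at most 0.701 TPM on any day. The neutrophil list summed to at most 1.99 TPM with S100a9 and Mpo at 0 counts, and the lymphocyte list to at most 0.622 TPM with Cd3e and Ncr1 at 0 counts. Endothelial markers, of which 2 rose and 1 fell, summed to 3.24 to 4.10 TPM on days 2 to 6 and to 8.87 to 12.1 TPM on days 14 to 18. Over all genes tested, 28.3% rose and 26.1% fell.

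Of 49 other genes of the complement system, 32 could be tested, and 22 rose, 3 fell and 7 did not pass, with a median fitted log2 change of 2.21. Their share of rises stands above the 28.3% over all genes, as does that of the members. Both lists were chosen with earlier results of these data known, so these shares are descriptions only. Genes with next to no early counts, such as Vsig4 and Cfd, entered the test through their later days. The spline called 28 of the 35 it tested, against 57.5% of all genes tested with it. Of the 49, 22 stayed under 1 TPM on all 9 days, and C8a, C8b, Mbl1, Cd55b and Cpn1 had no count in any profile.

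The C1q chains, the recognition unit upstream of C1r and C1s, also rose and were highest on day 18. C1qb went from 0.179 TPM on day 2 to 20.2 on day 16 and 61.9 on day 18, and C1qc from 0.306 to 24.8 and 77.8 TPM on those days. The fitted log2 changes were 8.14 for C1qc (SE 0.39), 7.84 for C1qa (SE 0.59) and 7.71 for C1qb (SE 0.59). On day 10, when C1s and C1ra stood at 63.3 and 66.5 percent of their highest day, C1qb and C1qc stood at 6.30 and 4.96 percent of theirs. Cfd, the protease factor D that activates factor B and is also an adipokine, had 0 to 2 counts a day up to day 10 and measured 1.74 TPM on day 12 and 35.1 on day 18. Vsig4, a macrophage receptor for C3 fragments, had no count up to day 8 and stood at 2.30 TPM on day 18. Cfd and Vsig4 had the largest fitted rises of the list, whose size is not given because several of their days were at 0.

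Clu, or clusterin, which blocks the terminal complex among other roles, went from 1.96 to 176 TPM (fitted log2 change 7.65, SE 1.08, edgeR adjusted p = 0.000265). Of the membrane regulators, Cd59b rose by 2.42, Cd59a by 1.94, Cd55 by 1.15 and Cr1l by 0.57 on the log2 scale, with edgeR adjusted p between 1.26e-05 and 0.00142, and Cd46 did not pass (1.30, edgeR adjusted p = 0.0917). Cr1l was already at 49.0 TPM on day 2. Thbd, or thrombomodulin, stood at 189 TPM on day 2 and 139 on day 18 and did not pass (-0.57, edgeR adjusted p = 0.113).

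Apart from Masp1, the genes that fell were C1qbp, a mitochondrial protein that binds C1q, from 91.5 to 43.3 TPM (-1.23, edgeR adjusted p = 0.000489), and C4bp, which measured 1.19 TPM on day 2 and at most 0.696 afterwards (-3.38, edgeR adjusted p = 0.0186). Colec12, a collectin scavenger receptor, rose from 47.3 to 139 TPM (1.43, edgeR adjusted p = 8.92e-05).

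**Figure D5:**
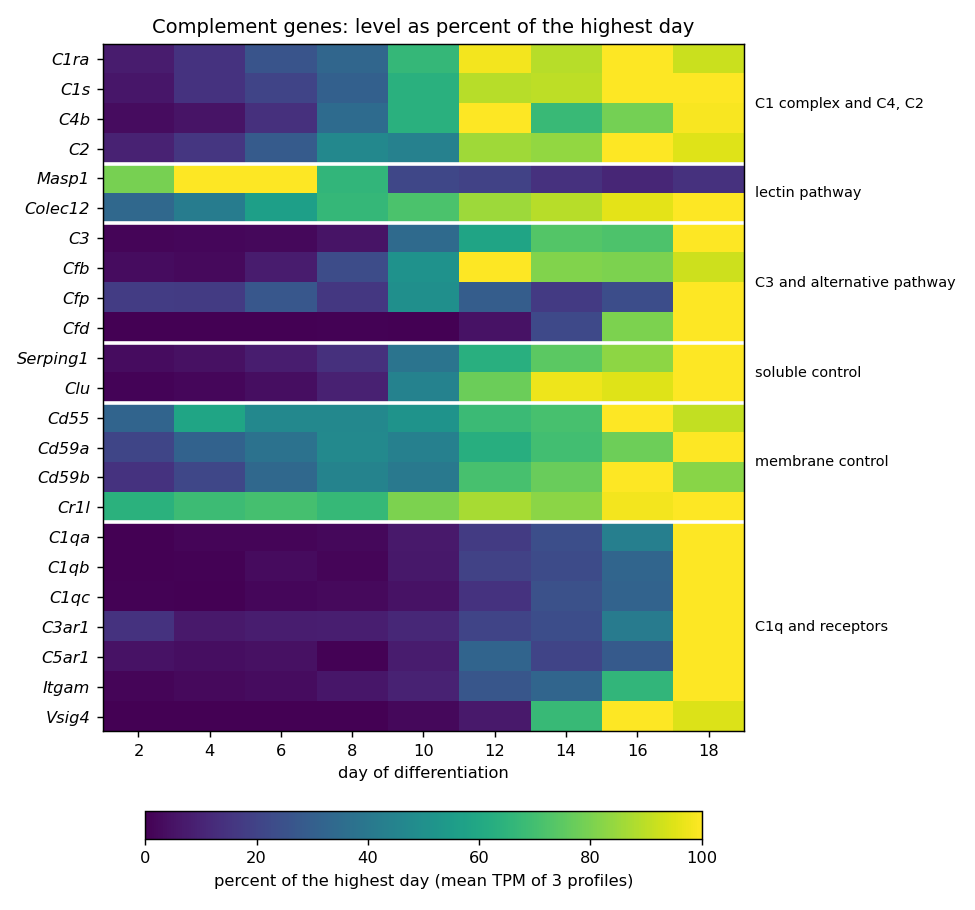
Level of complement genes by day as percent of the gene's highest day (mean TPM of 3 profiles; colour from 0 dark to 100 yellow), in rows grouped by role. C1ra, C1s and C4b stand above 50 percent from day 10 on and C2 from day 12 on, Masp1 is bright from day 2 to day 8 only, and C3ar1 and the C1q chains are bright on day 18.

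Of 14 transcription factors known to act on complement promoters, 13 were tested, and 4 rose, 4 fell and 5 did not pass, shares near the 28.3% and 26.1% of all genes tested that rose and fell. Cebpa measured 1.30, 1.09, 1.23, 3.33, 13.2, 18.0, 18.0, 22.3 and 23.4 TPM over the 9 days (fitted log2 change 5.15, SE 0.78, edgeR adjusted p = 0.000383). Its largest step was from day 8 to day 10. The same step was the largest for C3, C1ra and Serping1 and for genes of other lists, among them Clu, Pparg, Phex and Cd68. Irf8, Nr3c1 (the glucocorticoid receptor) and Nfkb1 rose by 4.92, 1.11 and 0.55 on the log2 scale, although Irf8 reached just 1.16 TPM. Cebpb, Cebpd, Stat3 and Vdr (the vitamin D receptor) fell by 1.36, 1.32, 0.47 and 1.66 on the log2 scale. Whether any of these factors acts on the complement genes was not tested.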

How the data were processed

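RNA from mouse calvarial cells at 9 time points was amplified (NuGEN Ovation), made into TruSeq libraries and sequenced on an Illumina HiSeq. The authors aligned reads to the NCBIm37 transcriptome with Bowtie 0.12.9 and quantified genes with RSEM (version 1.2.8 in the submitters' processing notes). The authors deposited RSEM's expected counts, TPM and FPKM for 37991 genes in each of 27 profiles, of which 37205 were given a symbol. Amplification bias, and the rule by which RSEM divides reads between genes and isoforms that share sequence, can move levels and lengths. Profiles held 7331125 to 20888956 counts (median 14505059).

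The 3 profiles of a day share a barcode and were summed and rounded. The p-values thus weigh the fitted trend in day against the scatter of 9 unreplicated libraries around it. Deposited TPM was rescaled to a common upper quartile (21.5 to 25.7 TPM before scaling), the authors' normalization; deposited FPKM served as an alternative. The methods name no test. A straight line in day, and a natural spline with 3 degrees of freedom, were fitted with edgeR 4.0.16 (quasi-likelihood test, factors from the upper quartile, genes kept by filterByExpr at min.count 10) and p-values adjusted by Benjamini-Hochberg over all genes tested. Scripts were tested on simulated data. Alternatives were TMM factors, DESeq2 1.42.0, other count filters, unsummed profiles with and without a replicate block, each replicate number or day left out, days 2 to 6 against 14 to 18, totals without mitochondrial ribosomal RNA, a spline with 2 degrees of freedom, other units, thresholds and pseudocounts, and, added after the data were seen, near-identical copies summed. CPM intervals are 95% Wilson intervals. Genes named beside the 9 members were other complement genes with a mean of at least 5 TPM, the 5 largest rises and falls among those past the threshold, those with no count, the promoter factors, cell type markers and the 3 genes most correlated with each member (mean of at least 1 TPM, pseudocount 1 TPM); others were named after their values were seen. The members and lists were chosen with earlier results of these data known. Some genes of these lists that entered the counts are not reported here by name.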

Additional observations from a re-analysis of the deposited data

How the results depend on the processing

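Under 21 alternatives each, the fitted change of all 9 genes kept its direction, and the calls held except that of Cfp, which did not pass without day 18 (0.83) or with days 2 to 6 set against days 14 to 18 (1.45, edgeR adjusted p = 0.071). Over the alternatives fitted as a line the adjusted p (edgeR or DESeq2) ran from 1.38e-06 to 0.174 for Cfp, from 5.37e-09 to 0.0165 for C3ar1, from 3.21e-10 to 0.00307 for C2 and from 9.57e-09 to 0.00987 for Cfb. Leaving out a day moved the size of the fits: without day 18 the change was 10.2 for C3, 6.76 for C4b, 6.89 for Cfb and 5.12 for C1s, and without day 2 it was 4.69 for C4b, 3.75 for C1s, 3.09 for C1ra and 2.14 for C2, and without day 4 it was 8.25 for C3 and 4.98 for Cfb. With each replicate number left out in turn, all 9 members passed and 24 to 25 other complement genes did. Because profiles of a day share a barcode, these fits used the same 9 libraries at lower depth and say nothing of spread between cultures. The replicate numbers did not pair the samples (mean correlation of deviations 0.00341 for the same number and -0.00171 for different numbers). With the 27 profiles unsummed and a replicate block, 9 members and 25 other complement genes passed the line, and 10881 genes in all against 8510. With TMM factors, 4280 genes rose and 4308 fell, against 4424 and 4086. Of the levels, 5 TPM in place of 1 TPM left C3 at 5 days and Cfp and C3ar1 at 1 day each, and 1 FPKM left Cfp at 5 days. Low counts limit C3, Cfp, C4b and Cfb on days 2 and 4 (26 to 49 counts a day), and with no replicate culture identified the spread between cultures is unknown.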
